A study of Drosophila melanogaster with 6 samples.

Results

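A set of 99 Drosophila melanogaster genes was described that had higher RNA levels in larval muscle lysate after knockdown of tmod and closely spaced values in the control libraries. The genes were chosen by their values from a table of 17807 genes, of which 10969 averaged 10 normalized counts or more across all 6 libraries and are called tested genes below. On the log2(normalized count + 1) scale, the 3 control libraries had to lie within 0.7 of each other. The lowest knockdown library had to exceed the highest control by at least 0.7. A total of 105 genes met these limits, and 6 were then removed by symbol: Lsp1beta, Lsp1gamma, Osi6, S-Lap3, S-Lap7 and lmd. Because the choice used the contrast itself, the differences between the groups are given for the members as values, with no test.

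Each of the 6 libraries came from a muscle-enriched lysate of 7 to 10 larvae grown for about 90 h, to the end of the last larval instar. The 3 tmodRNAi libraries had the genotype UAS-dcr2;;Dmef2-Gal4>UAS-tmodRNAi and the 3 mCherryRNAi libraries UAS-dcr2;;Dmef2-Gal4>UAS-mCherryRNAi, so both groups carried the Gal4 driver of the Mef2 promoter and the UAS transgene for Dicer-2, which strengthens RNA interference. The mCherry hairpin has no target in the fly genome. The driver is active in muscle, whereas the lysates were enriched for muscle and not sorted, so RNA of other tissues was also read. The labels name the tissue adult body wall, and the growth protocol and the design text name larvae.

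Tropomodulin, the product of tmod, caps the pointed ends of the thin actin filaments of the sarcomere, where it limits their length. In flies, the body wall muscles of the larva are large multinucleate fibres that lie beside fat body, nerves and epidermis. The larval gonads are embedded in the fat body, and the testis expresses many genes that are read little elsewhere. In bulk RNA of this kind, a change in the number of cells of a type and a change in RNA per cell cannot be told apart.

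The tmod gene had 13993, 13734 and 12980 normalized counts in tmodRNAi replicates 1 to 3, against 70528, 92366 and 75101 in mCherryRNAi replicates 1 to 3 (log2 fold change -2.54, SE 0.12, adjusted p = 0.0045 by limma with Benjamini-Hochberg adjustment). Between 83824273 and 110151028 reads were assigned to genes per library, and 3 reads corresponded to 2.41 to 3.31 normalized counts. The 12 muscle markers, among them myosin light chains, troponins and Act57B, were read in each library. Their summed level was 11127700 to 12572100 normalized counts in tmodRNAi and 2257970 to 7244160 in mCherryRNAi, highest among the controls in replicate 1. For 11 of the 12 each tmodRNAi library stood above the controls, and limma called 6 higher and 0 lower. The exception was Mef2, with 15070, 14190 and 14360 normalized counts in tmodRNAi, against 15080, 25270 and 24300 in mCherryRNAi. At least 1 read was found for 13598, 14184 and 13588 genes in tmodRNAi replicates 1 to 3, against 13222, 13386 and 13064 genes in the mCherryRNAi libraries. The highest number stood in tmodRNAi replicate 2.

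The 99 members had a median of 63.5 normalized counts in tmodRNAi and 15.3 in mCherryRNAi, each member taken as the mean of its 3 libraries. The groups had to be separate for each member by the rule, and they were separate with tmodRNAi higher for 25.0% of all tested genes. A gap of at least 0.7 was found for 3.77% of tested genes, and 0.957% met both limits. The members' log2 fold changes ran from 0.92 to 5.18 with a median of 2.05, against a median of 0.02 over all tested genes. With the 24 members that had no read in any control set to their lower bound, the median was again 2.05. It could not have moved, because even the lowest of these bounds, 7.34-fold, lay above the median. By limma, 90 of the 99 members passed an adjusted p of 0.05, against 10.9% of tested genes that passed as higher in tmodRNAi, but nothing can be read from this count because the rule used the same values.

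Many members were low in the controls. In 45 of the 99 the control mean was under 10 normalized counts, so they reached the minimum mean through the knockdown libraries. In the other 54 it was at least 10, and in 25 of these at least 100. The mean over the 6 libraries was under 50 in 58.6% of members, against 16.1% of all tested genes. The rule set no limit on the spread of the tmodRNAi libraries. The 3 tmodRNAi values of a member spanned a median of 1.26 on the log2(normalized count + 1) scale, against 0.25 over all tested genes, and in 32 of the 99 they lay within 0.7. The span of the 3 controls, which the rule limited, had a median of 0.35.

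**Figure D1:**
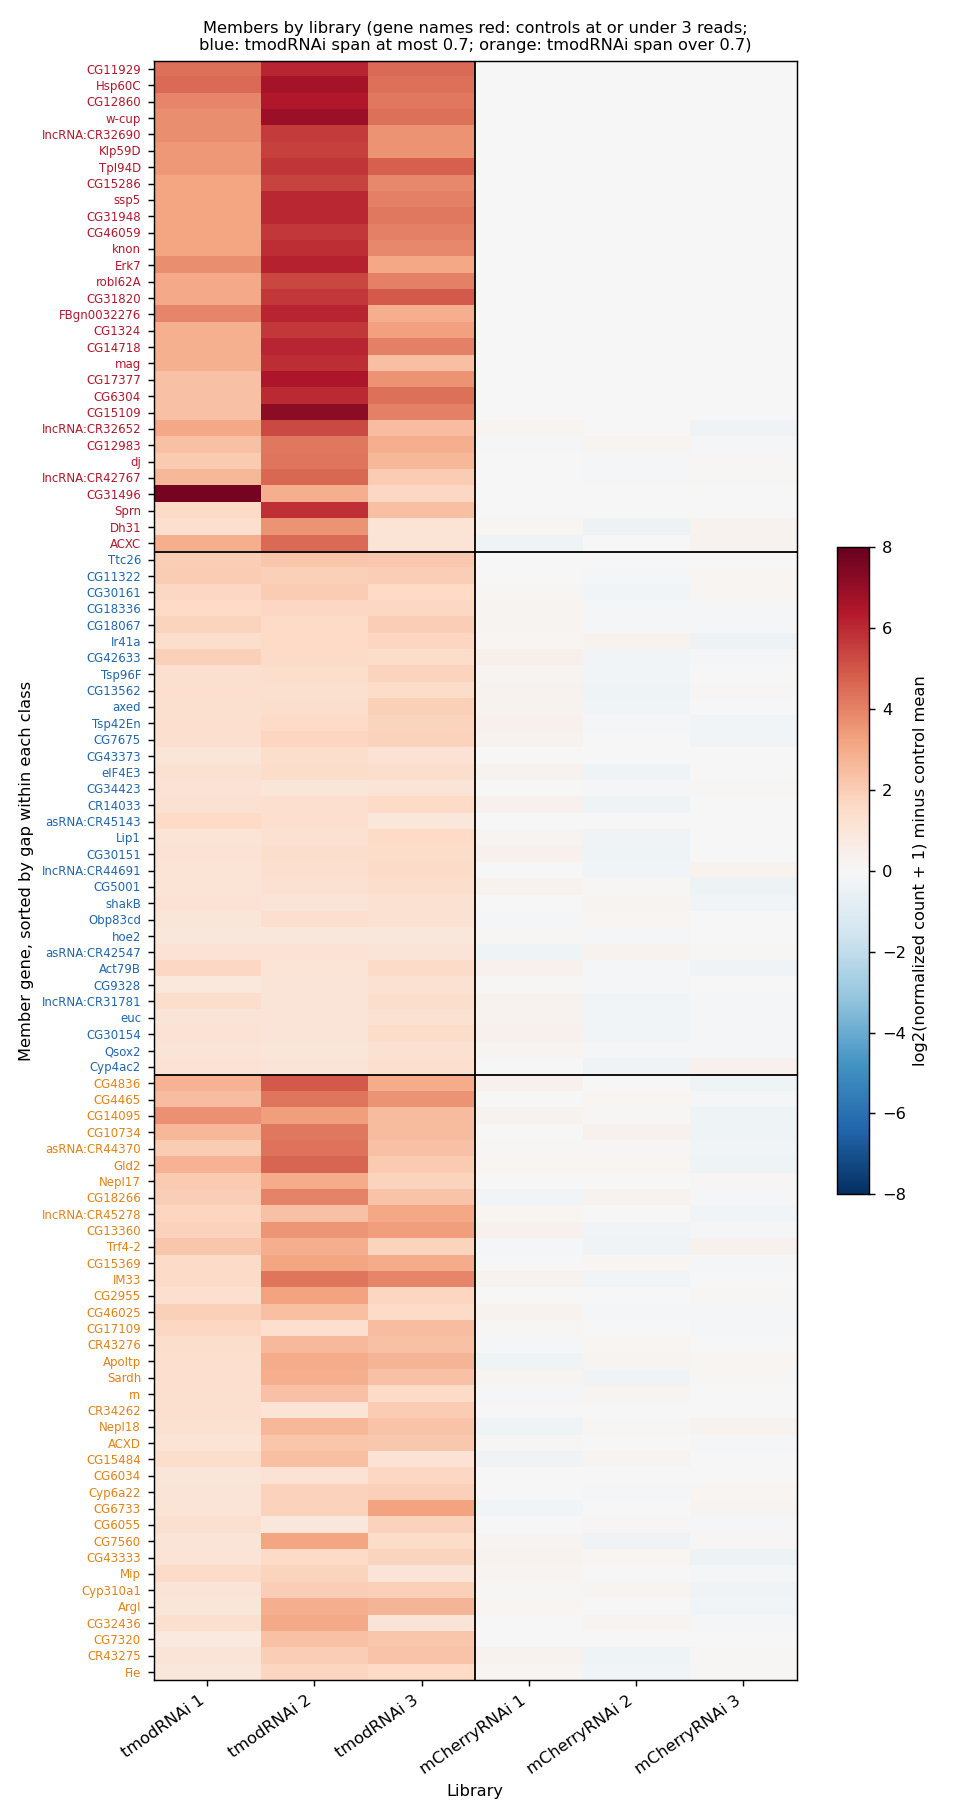
Each row is 1 of the 99 members and each column 1 library, with tmodRNAi to the left of mCherryRNAi; colour is the log2(normalized count + 1) difference from the member's mean over the 3 controls. In the 30 members of the top block the strongest colour stands in tmodRNAi replicate 2 for 29, whereas the 32 members of the block with steady values have like colours in all 3 tmodRNAi libraries.

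The values fell into 3 patterns, which were defined after the values had been seen. In 30 members each control held at most 3 reads. In 32 members the tmodRNAi libraries lay within 0.7 of each other on the same log2 scale as the controls did. In the remaining 37 the tmodRNAi libraries spread by more than 0.7. These groups are treated in turn, since the libraries that carry the difference were not the same ones in each.

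The 30 members with at most 3 reads in each control were all read in each of the 3 tmodRNAi libraries, as the rule required. Most of their reads stood in replicate 2. Of the 30 members, 24 had no read in any control. Over all tested genes, 36 had no read in any control, and 6 had none in any tmodRNAi library. The 30 members together had 502.1, 1898.5 and 411.3 normalized counts in tmodRNAi replicates 1 to 3, against 10.8, 9.7 and 11.8 in mCherryRNAi replicates 1 to 3. The highest value stood in tmodRNAi replicate 2 for 29 of the 30, compared with 28.9% of all tested genes. When the rule was applied without tmodRNAi replicate 2, 1 of these 30 still met it, against 29 without tmodRNAi replicate 1 and 28 without replicate 3. Leaving out a tmodRNAi library cannot narrow the gap or change the control span. The members lost therefore kept their gap and fell under the minimum mean of 10 normalized counts in the remaining libraries.

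Several of these members have known roles in the male germline. Hsp60C encodes a mitochondrial chaperonin needed in spermatogenesis. Its levels were 22.2, 98.0 and 19.8 normalized counts in tmodRNAi replicates 1 to 3, and no read was found in the 3 controls. Taking 3 reads per control library as the floor, its mean was at least 16.4-fold higher in tmodRNAi, and at least 7.37-fold higher when tmodRNAi replicate 2 was left out. It lies on chromosome 2L from 5662849 to 5670838 on the plus strand.

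The w-cup gene belongs to the cup genes, which are transcribed late, in spermatids. It had 12.1, 116 and 19.8 normalized counts in tmodRNAi replicates 1 to 3, with none in the controls. The mean was at least 17.3-fold higher in tmodRNAi, and at least 5.60-fold higher without replicate 2, which was the highest of the 3 by a wide margin. Tpl94D, which encodes a transition-like protein that sits on sperm chromatin for a time, had 10.1, 51.1 and 26.5 normalized counts in tmodRNAi and none in the controls. For Tpl94D, replicate 3 was also more than 2-fold above replicate 1. The gene knon, a testis paralogue of a subunit of the mitochondrial ATP synthase, had 8.08, 58.6 and 13.2 normalized counts in tmodRNAi and none in the controls.

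The gene dj (don juan), which encodes a sperm protein, was read at a trace in the controls. It had 11.1, 54.3 and 17.6 normalized counts in tmodRNAi replicates 1 to 3, against 1.96, 1.61 and 2.14 in mCherryRNAi replicates 1 to 3. All 3 tmodRNAi libraries stood above the controls, with replicate 2 highest. ACXC, 1 of a family of adenylyl cyclases expressed in testis, had 18.2, 57.5 and 4.41 normalized counts in tmodRNAi, against 0.980, 1.61 and 2.14 in mCherryRNAi. Here replicate 3 came close to the controls, and only its distance to them of 0.79 on the log2 scale kept the gene in the set.

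Others in the group encode motor, signalling and lipid proteins. Klp59D, a kinesin of the microtubule-depolymerizing kind, had 10.1, 42.6 and 11.0 normalized counts in tmodRNAi and none in the controls. The roadblock-like dynein light chain gene robl62A had 7.07, 40.5 and 15.4, and Erk7, an atypical MAP kinase, had 12.1, 69.3 and 7.72, with none in the controls for either. Replicate 2 was again the highest in both. The lipase gene mag (magro), known from the gut, had 6.06, 59.7 and 4.41 normalized counts in tmodRNAi and none in the controls. Without replicate 2 its lower bound was 1.83-fold, close to the floor. Dh31, which encodes a diuretic neuropeptide, had 8.08, 40.5 and 6.62 normalized counts in tmodRNAi, against 2.94, 1.61 and 3.21 in mCherryRNAi.

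The largest gap of the whole set was that of CG11929, a gene with no name of its own on chromosome 2L from 4682677 to 4687232. It had 20.2, 68.2 and 22.1 normalized counts in tmodRNAi replicates 1 to 3 and none in the controls, so that its lowest knockdown value stood 4.41 above the controls on the log2(normalized count + 1) scale. CG12860 had 14.1, 83.1 and 17.6 normalized counts in tmodRNAi and none in the controls, and lncRNA:CR32690 had 12.1, 47.9 and 11.0 with none in the controls. In these genes too replicate 2 was the highest library. The other members whose gaps were among the 15 largest were CG15286, ssp5, CG31948, CG46059 and CG31820. They had 7.07 to 8.08 normalized counts in tmodRNAi replicate 1, 41.6 to 65.0 in replicate 2 and 13.2 to 28.7 in replicate 3, and none in the controls.

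The exception to the order was CG31496, which had 203, 6.39 and 2.21 normalized counts in tmodRNAi replicates 1 to 3 and none in the controls. Its 2 lower values are 6 and 2 reads, so it rests on replicate 1. Without CG31496 the other 29 members summed to 299.0, 1892.2 and 409.1 normalized counts in tmodRNAi replicates 1 to 3. The remaining members with at most 3 reads in each control were CG1324, CG14718, CG17377, CG6304, CG15109, CG12983, Sprn, lncRNA:CR32652, lncRNA:CR42767 and 1 identifier with no symbol, FBgn0032276. Across the 24 members with no control read, the lower bound of the fold ran from 7.34 to 24.7 with all libraries and from 1.13 to 36.0 without replicate 2.

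**Figure D2:**
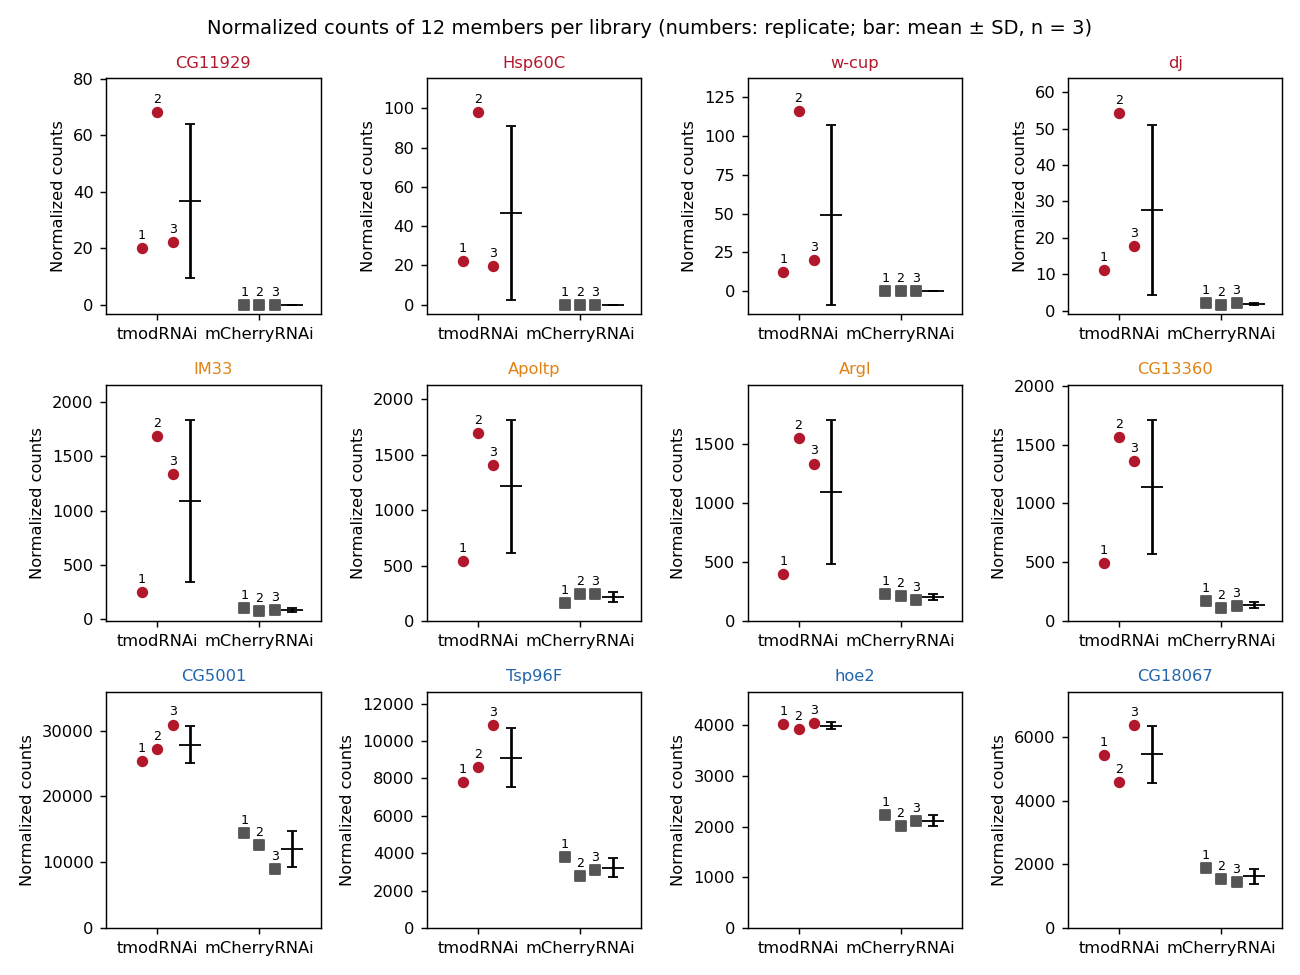
Normalized counts per library of 12 members, 4 from each pattern, with tmodRNAi to the left of mCherryRNAi; numbers give the replicate and the bar the mean ± SD (n = 3). CG11929, Hsp60C, w-cup and dj are highest in tmodRNAi replicate 2, IM33, Apoltp, Argl and CG13360 are high in replicates 2 and 3, and CG5001, Tsp96F, hoe2 and CG18067 are high in all 3.

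The levels of 13 male germline markers were compared with those of these members. Each marker was read in at least 1 control, and 12, 13 and 13 were read in tmodRNAi replicates 1 to 3, against 11, 9 and 9 in mCherryRNAi replicates 1 to 3. The list's sum was 15505 to 18149 normalized counts in tmodRNAi and 14016 to 16239 in mCherryRNAi, nearly all of it from Pka-C3, which is also read in other tissues. Without Pka-C3, a choice made after its level had been seen, the other 12 summed to 183.9, 583.8 and 190.7 normalized counts in tmodRNAi, against 157.8, 173.8 and 153.9 in mCherryRNAi. The testis tubulin betaTub85D had 23.2, 192.8 and 27.6 normalized counts in tmodRNAi, against 6.86, 0 and 4.28 in mCherryRNAi. The marker comr was at 0 in tmodRNAi replicate 1 and mCherryRNAi replicate 1.

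Not each testis marker moved this way. Mst87F had 37.4, 56.5 and 38.6 normalized counts in tmodRNAi, against 49.0, 37.8 and 37.4 in mCherryRNAi, and fzo had 59.6, 106.5 and 57.3, against 78.4, 107 and 99.4, so the groups overlapped for both. Of the 7 markers above the minimum mean, 2 were called higher in tmodRNAi by limma and 0 lower, and 1 of the 7 was the member dj. The RNA lncRNA:roX1, which male cells make for dosage compensation and which was added to the comparison after its values had been seen, had 17350, 21060 and 17750 normalized counts in tmodRNAi, against 9892, 17990 and 9515 in mCherryRNAi (adjusted p = 0.107 by limma). Its partner lncRNA:roX2, added likewise, had 241, 441 and 266, against 165, 310 and 150. The gene msl-2, whose protein acts with these RNAs, had 1883, 2095 and 1788, against 1500, 2413 and 1707, and the groups overlapped for each of the 3 genes. The labels give no sex for the pooled larvae. The part of gonad tissue or of sex ratio in these members' values was not tested. Of the genes removed by symbol, S-Lap7, a leucyl aminopeptidase of sperm, had 22.2, 216 and 43.0 normalized counts in tmodRNAi and S-Lap3 had 38.4, 202 and 20.9, with none in the controls for either.

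The 37 members whose tmodRNAi libraries spread by more than 0.7 were read in the controls as well. They summed to 6315, 15863 and 14042 normalized counts in tmodRNAi replicates 1 to 3, against 2450, 2460 and 2286 in mCherryRNAi. Replicate 2 was the highest tmodRNAi library for 27 of the 37, against 28.9% of all tested genes. Replicate 1 was the lowest for 25 of the 37, against 32.5%. In 10 of the 37 replicates 2 and 3 were both at least 2-fold above replicate 1, against 2.56% of all tested genes. In 9 of the 37 replicate 2 alone was at least 2-fold above both others, against 4.7%. Without tmodRNAi replicate 2, 32 of the 37 still met the rule.

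Among the genes high in replicates 2 and 3 were ones known from fat body and haemolymph. IM33 encodes an immune-induced molecule of the haemolymph. Its levels were 257, 1684 and 1335 normalized counts in tmodRNAi replicates 1 to 3, against 104, 74.0 and 85.5 in mCherryRNAi. All 3 tmodRNAi libraries stood above the controls, but replicate 1 was less than 3-fold above the highest of them. The mean was 12.4-fold higher in tmodRNAi, and 17.2-fold higher without replicate 1.

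Apoltp encodes the apolipoprotein of a lipid transfer particle that the fat body secretes. It had 544, 1693 and 1409 normalized counts in tmodRNAi replicates 1 to 3, against 165, 242 and 241 in mCherryRNAi, a 5.63-fold difference of the means. Argl, which encodes argininosuccinate lyase, had 396, 1547 and 1332 normalized counts in tmodRNAi, against 229, 211 and 180 in mCherryRNAi. Its exons share 161 bp with CG9515 on the same strand and 19 bp with Tsp29Fb on the other, so part of its reads may belong to those genes. Sardh, which encodes sarcosine dehydrogenase, a mitochondrial enzyme of amino acid breakdown, had 231, 697 and 464 normalized counts in tmodRNAi, against 109, 74.8 and 97.3 in mCherryRNAi.

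The same order of libraries was found in genes with no established role. CG13360 had 496, 1567 and 1361 normalized counts in tmodRNAi, against 169, 113 and 127 in mCherryRNAi, and its exons share 361 bp with tw on the other strand, for which the log2 fold change was 0.19. CG15369 had 688, 2150 and 1880 normalized counts in tmodRNAi, against 233, 274 and 223 in mCherryRNAi. CG7320 had 179, 528 and 486, against 102, 104 and 102, the narrowest controls of this group. Each of these was lowest of the tmodRNAi libraries in replicate 1 by more than 2-fold.

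The summed level of the 9 fat body markers in the table was likewise lowest in replicate 1 among the tmodRNAi libraries and highest in replicate 2. The sums were 315880, 1021910 and 848877 normalized counts in tmodRNAi replicates 1 to 3, against 176028, 286400 and 261110 in mCherryRNAi, and none was at 0 in any library. By limma 3 of the 9, the larval serum protein genes Lsp1alpha, Lsp1beta and Lsp1gamma, passed as higher in tmodRNAi and 0 as lower. These 3 genes made up most of the sum in each tmodRNAi library, so the sum does not give the change of the other markers. For 6 of the 9 markers each tmodRNAi library stood above the controls. Lsp1beta and Lsp1gamma met the rule and were among the 6 removed by symbol. Lsp1beta had 88246, 315590 and 242120 normalized counts in tmodRNAi, against 41298, 43075 and 31928 in mCherryRNAi. The marker Fbp1 had 37920, 69350 and 93930, against 44710, 128200 and 122600, with overlap between the groups and replicate 3 highest in tmodRNAi, as it was for the marker Adh. The groups also overlapped for the markers Fbp2 and Obp99b. The part of fat body RNA in the members' values was not tested.

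**Figure D3:**
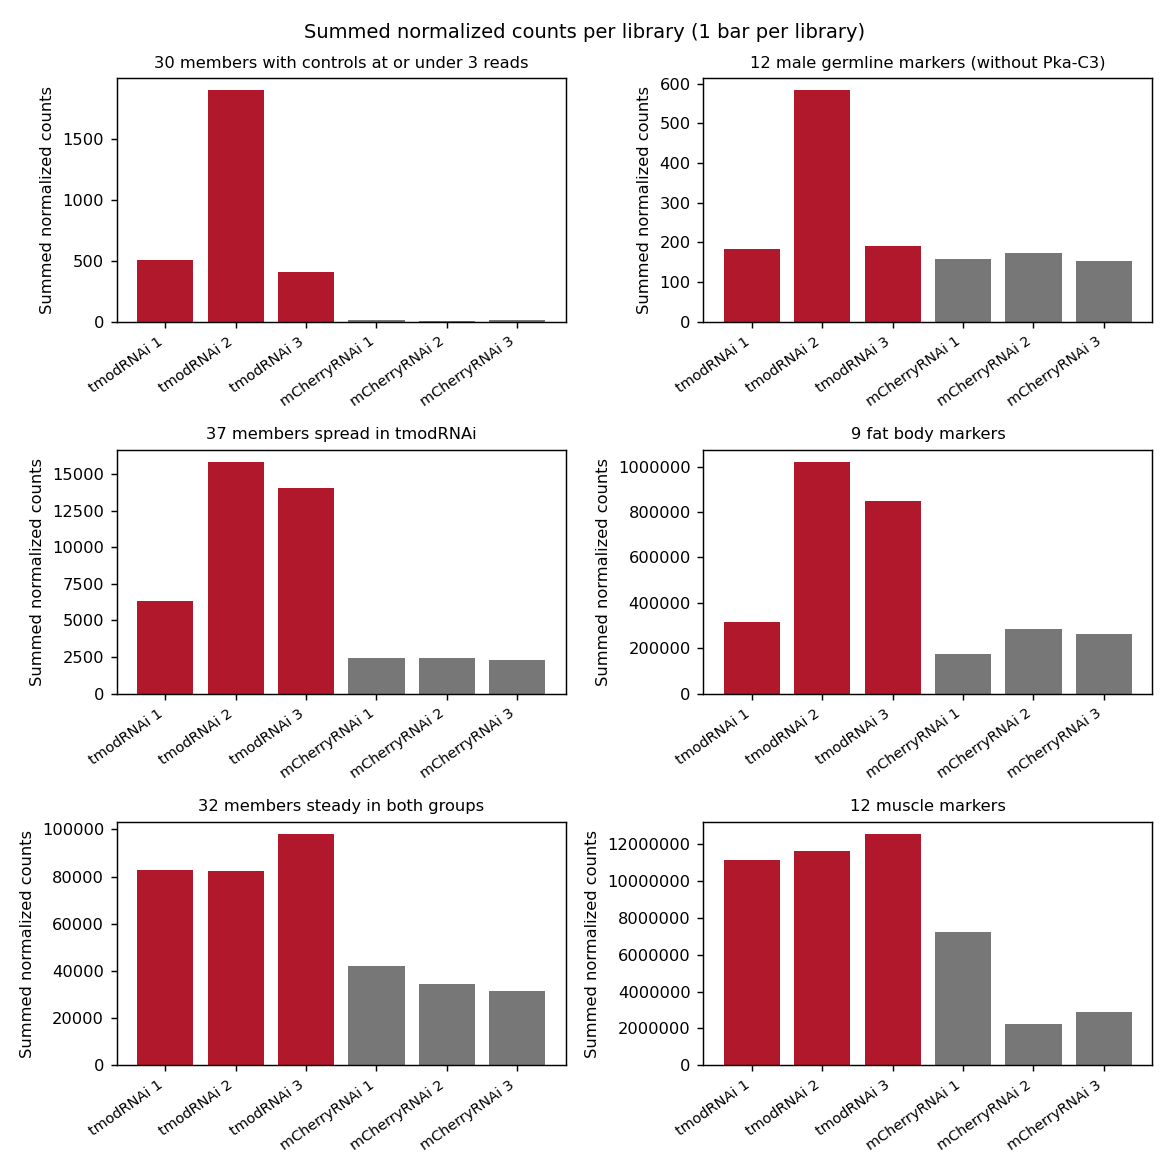
Summed normalized counts per library, 1 bar each on a scale of its own per panel, with tmodRNAi to the left of mCherryRNAi; the left column holds the members of each pattern and the right column 12 male germline markers, 9 fat body markers and 12 muscle markers. The 30 members with at most 3 control reads and the germline markers peak in tmodRNAi replicate 2, and the 37 members with spread tmodRNAi values and the fat body markers are high in tmodRNAi replicates 2 and 3.

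In CG4836 and CG4465, the members of the spread group with the largest gaps, replicate 2 was again the highest library. CG4836 had 108, 470 and 125 normalized counts in tmodRNAi replicates 1 to 3, against 19.6, 14.5 and 11.8 in mCherryRNAi. Its mean was 15.3-fold higher in tmodRNAi and 7.61-fold higher without replicate 2. CG4465 had 93.9, 328 and 208 normalized counts in tmodRNAi, against 15.7, 17.7 and 14.97 in mCherryRNAi, so that replicate 3 was also more than 2-fold above replicate 1. Both genes lie on chromosome 3R, CG4836 from 20013872 to 20018248 and CG4465 from 19915868 to 19917839. CG14095, the next of the spread group by gap, was instead highest in replicate 1. It had 50.5, 39.4 and 22.1 normalized counts in tmodRNAi replicates 1 to 3, against 3.92, 3.22 and 2.14 in mCherryRNAi.

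The poly(A) polymerase genes Gld2 and Trf4-2 were in this group. Gld2, which extends poly(A) tails in the germline, had 35.4, 134 and 20.9 normalized counts in tmodRNAi, against 4.90, 4.83 and 3.21 in mCherryRNAi. Trf4-2 had 18.2, 29.8 and 13.2, against 2.94, 2.41 and 4.28. A second adenylyl cyclase of the ACX family, ACXD, had 90.9, 200.3 and 197 normalized counts in tmodRNAi, against 46.1, 41.8 and 40.6 in mCherryRNAi. Gld2 peaked in replicate 2, whereas ACXD was high in replicates 2 and 3. The rotund gene rn, a zinc finger factor of imaginal discs and the only member among 11 disc markers, had 390, 842 and 474 normalized counts in tmodRNAi, against 146, 186 and 156 in mCherryRNAi. The disc list as a whole summed to 33127 to 34846 normalized counts in tmodRNAi and 29401 to 31990 in mCherryRNAi, with 2 of 11 genes higher and 0 lower by limma.

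Peptidase genes and pairs of neighbours made up further small groups. The neighbouring neprilysin-like genes Nepl17 and Nepl18 stand 589 bp apart on chromosome 3R between 28872905 and 28877805. Nepl17 had 38.4, 70.3 and 29.8 normalized counts in tmodRNAi, against 7.84, 8.05 and 8.55 in mCherryRNAi. Nepl18 had 130, 348 and 262, against 42.2, 57.9 and 65.2. Both were highest in replicate 2, and the lowest library was replicate 3 for Nepl17 and replicate 1 for Nepl18. The adjacent genes CG17109 and CG6733, 487 bp apart on chromosome 3R between 23095690 and 23099191, were instead highest in replicate 3. CG17109 had 1078, 887 and 1962 normalized counts in tmodRNAi, against 374, 355 and 319 in mCherryRNAi, and CG6733 had 16.2, 28.8 and 75.0, against 5.88, 7.24 and 8.55.

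Cytochrome P450 enzymes oxidize hormones, lipids and foreign compounds, and 3 of their genes were members. Cyp310a1 had 294, 570 and 551 normalized counts in tmodRNAi, against 153, 169 and 121 in mCherryRNAi. Cyp6a22 had 40.4, 71.4 and 75.0, against 18.6, 16.9 and 21.4. Cyp4ac2, whose tmodRNAi libraries were closer together, had 136, 126 and 158, against 59.8, 49.1 and 77.0. It was the member nearest to the limit on the gap, at 0.70 on the log2 scale. Mip, which encodes a myoinhibitory neuropeptide, had 16.2, 19.2 and 11.0 normalized counts in tmodRNAi, against 5.88, 4.83 and 4.28 in mCherryRNAi. The 12 neuron markers summed to 16357, 22612 and 16712 normalized counts in tmodRNAi, against 16132, 10778 and 12370 in mCherryRNAi, with 1 higher and 0 lower by limma, and none was at 0 in any library. Syx1A made up the largest part of each sum, and for 5 of the 12 each tmodRNAi library stood above the controls. The part of nerve RNA in the values of Mip and Dh31 was not tested.

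The rest of the spread group comprised CG10734, CG18266, CG2955, CG46025, CG15484, CG6034, CG6055, CG7560, CG43333, CG32436 and Fie, the pseudogenes CR43276, CR43275 and CR34262, and the RNAs asRNA:CR44370 and lncRNA:CR45278. Over the 37 members together, group means ran from 15.5 to 1573 normalized counts in tmodRNAi and from 2.44 to 349 in mCherryRNAi. CR43276 and CR43275 lie 139 bp apart on the minus strand of chromosome 2R, between 15373240 and 15374721. Counts of pseudogenes can include reads of their parent genes, so their separate values are uncertain. The antisense RNA asRNA:CR44370 had 78.8, 387 and 99.2 normalized counts in tmodRNAi, against 19.6, 20.1 and 16.0 in mCherryRNAi. It shares 249 bp of exon with Fs on the other strand, which had 71.7, 96.9 and 48.5, against 43.1, 89.3 and 80.2, with overlap between the groups.

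The 32 members with closely spaced values in both groups held most of the set's reads. They summed to 82633, 82465 and 98174 normalized counts in tmodRNAi replicates 1 to 3, against 42036, 34282 and 31375 in mCherryRNAi. The fold of the means ran from 1.89 to 4.76 with a median of 2.56, and the median was 2.57 without tmodRNAi replicate 2. Replicate 3 was the highest tmodRNAi library for 20 of the 32, against 35.1% of all tested genes. Among the controls, mCherryRNAi replicate 1 was the highest for 21 of the 32, against 39.7% of all tested genes, the library in which muscle markers were also highest. The part of muscle RNA content in these members' values was not tested.

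CG5001 had the highest level of the set, and its product has a J domain, the part of DNAJ proteins that works with Hsp70. It had 25420, 27139 and 30912 normalized counts in tmodRNAi replicates 1 to 3, against 14422, 12568 and 8985 in mCherryRNAi, or 27824 ± 2809 and 11991 ± 2764 (SD, n = 3 each). It also had the highest level per length, 9498 normalized counts per kb of exon over the 6 libraries. Next per length were lncRNA:CR31781 with 3687, CG30154 with 3471 and CG7675 with 3218 normalized counts per kb. The RNA lncRNA:CR31781 had 15286, 11806 and 14865 normalized counts in tmodRNAi, against 6967, 4925 and 5408 in mCherryRNAi. CG7675, an oxidoreductase of the short-chain dehydrogenase family, had 5256, 7117 and 7811, against 2627, 2174 and 1854.

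Some of the steady members encode membrane proteins. Tsp96F, a tetraspanin, had 7822, 8600 and 10857 normalized counts in tmodRNAi, against 3779, 2771 and 3110 in mCherryRNAi, and the tetraspanin gene Tsp42En had 191, 227 and 258, against 94.1, 69.2 and 62.0. The gap junction gene shakB, an innexin of electrical synapses, had 3206, 3037 and 3484 normalized counts in tmodRNAi, against 1436, 1726 and 1276 in mCherryRNAi. The transporter-like gene hoe2 (hoepel2) had the closest tmodRNAi libraries of any member, with 4026, 3926 and 4039 normalized counts, against 2237, 2014 and 2106 in mCherryRNAi. Its means were 3997 ± 61.7 and 2119 ± 112 (SD, n = 3 each), a 1.89-fold difference that was the smallest fold among the 32. The chemoreceptor gene Ir41a had 64.7, 73.5 and 82.7 normalized counts in tmodRNAi, against 26.5, 29.0 and 18.2 in mCherryRNAi.

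Several steady members encode secreted or signalling proteins. CG18067, named Bbd (bombardier) in the BDGP6.54 annotation and a gene of the Toll humoral response, had 5456, 4585 and 6382 normalized counts in tmodRNAi, against 1879, 1525 and 1460 in mCherryRNAi. It lies 310 bp from CG30154 on chromosome 2R, and CG30151 lies 3894 bp beyond, the 3 genes between 20528503 and 20535835. CG30154 had 2372, 2149 and 2847 normalized counts in tmodRNAi, against 1313, 888 and 989, and CG30151 had 172, 202 and 211, against 96.1, 59.5 and 73.8. The 3 neighbours were separate between the groups in each library by the rule, and none of the tmodRNAi libraries stood apart. Qsox2, a sulfhydryl oxidase that forms disulfide bonds, had 6173, 5751 and 6835, against 3527, 2707 and 2804. Lip1, a lipase gene, had 397, 435 and 579, against 223, 154 and 190, and Obp83cd, of the odorant-binding protein family, had 54.6, 73.5 and 65.1, against 25.5, 30.6 and 27.8.

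The axundead gene axed, known for its part in the programmed degeneration of cut axons, had 3126, 3476 and 4722 normalized counts in tmodRNAi replicates 1 to 3, against 1530, 1099 and 1266 in mCherryRNAi. The mean was 2.91-fold higher in tmodRNAi. Ttc26, a component of intraflagellar transport in cilia, had the largest gap of the 32 members, with 33.3, 40.5 and 37.5 normalized counts, against 7.84, 8.05 and 7.48. It shares 239 bp of exon with asRNA:CR45206 on the other strand, which was read at 7.07 to 13.9 normalized counts in tmodRNAi and at most 0.980 in mCherryRNAi, so the 2 cannot be told apart if the counting ignored strand. CG11322 had 18.2, 17.0 and 17.6 normalized counts in tmodRNAi, against 3.92, 3.22 and 4.28. CG9328 had 1599, 1861 and 2081, against 942, 838 and 899.

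Act79B was the only member among 32 tested genes of the sarcomere and Z-disc list. It encodes an actin of tubular muscles of the adult, and had 153, 104 and 141 normalized counts in tmodRNAi, against 60.8, 45.9 and 39.6 in mCherryRNAi. Its own level is uncertain, because other actin genes have nearly the same sequence and could have exchanged reads with it. On the same list limma called 17 genes higher and 1 lower in tmodRNAi, the median log2 fold change being 1.31, but for 16 of the 17 the controls spread too far or the gap was too small for the rule. The gene eIF4E3, a cap-binding protein of the male germline, had 268, 308 and 303 normalized counts in tmodRNAi, against 139, 88.5 and 114 in mCherryRNAi. The remaining members with steady values were CG30161, CG18336, CG42633, CG13562, CG43373, CG34423, euc, the pseudogene CR14033, asRNA:CR45143, asRNA:CR42547 and lncRNA:CR44691. CG43373 shares 934 bp of exon on the same strand with CG42514, which had a log2 fold change of 1.10, and their counts may overlap. CR14033 shares 158 bp with tkv on the other strand, for which the log2 fold change was -0.50.

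**Figure D4:**
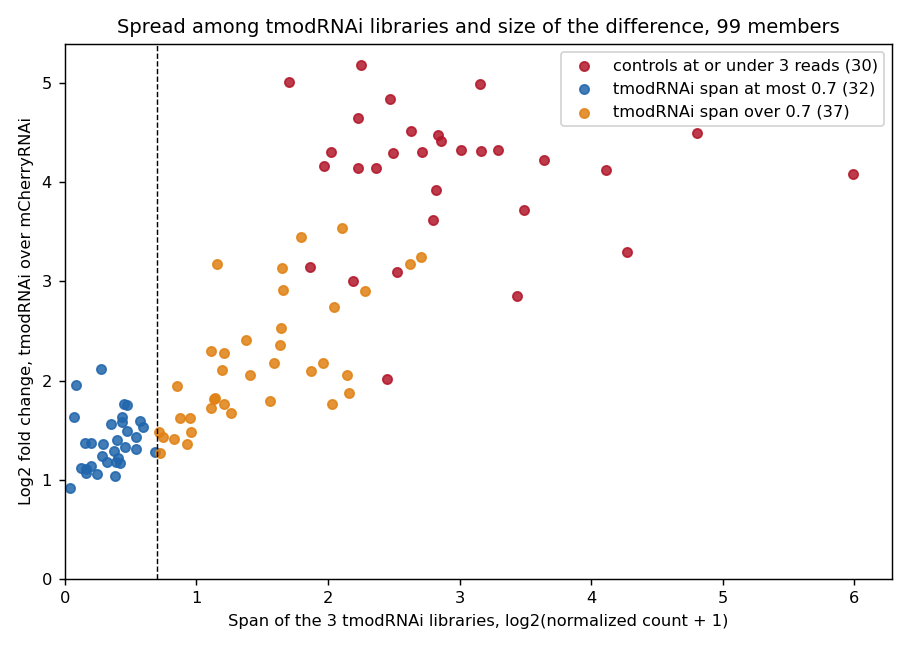
Each point is 1 of the 99 members, with the span of its 3 tmodRNAi libraries on the x axis and the log2 fold change of tmodRNAi over mCherryRNAi on the y axis, both on the log2(normalized count + 1) scale and coloured by pattern. The dashed line marks a span of 0.7; members with at most 3 control reads lie at spans of 1.71 to 5.99, and their fold changes depend on the added 1.

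The members were compared with pathway lists chosen for muscle and its degeneration. Of 24 lists with 805 different tested genes, 4 lists held 1 member each: Act79B in the sarcomere list, IM33 in the immune list, Apoltp in the lipid list and eIF4E3 in the translation list. These 4 are 0.497% of the listed genes, and members are 0.903% of all tested genes, a difference of a few genes from which nothing is read. Of the 805 genes, limma called 144 higher and 145 lower in tmodRNAi, and over all tested genes it called 10.9% higher and 12.9% lower. In the immune list of 43 tested genes, 6 were higher and 10 lower, with a median log2 fold change of -0.06. In the lipid list of 33 genes, 8 were higher and 4 lower, with a median of 0.15, and in the translation list of 31 genes, 10 were higher and 0 lower, with a median of 0.28.

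The largest count of higher genes was in the list of DNA replication and mitosis, with 31 higher and 0 lower of 42 tested, a median log2 fold change of 0.60 and no member. The proteasome list had 1 higher and 35 lower of 38 genes, with a median of -0.94, and the autophagy list 0 higher and 20 lower of 34, with a median of -0.55, again with no member. In the 17 lists not yet named, none with a member, 1 to 15 genes were called higher and 0 to 16 lower. The other 8 marker lists, of epidermis, glia, haemocytes, trachea, midgut, Malpighian tubule, salivary gland and tendon, held no member either. Across the 6 libraries, the tested non-members whose profile was most like the members' mean profile included the cell division gene scra. The mean of the standardized log2 profiles correlated at r = 0.994 with CG14441 and CG6000. It correlated at 0.993 with S-Lap7, a gene removed by symbol, and at 0.992 with nw and scra, the anillin gene of cytokinesis. The correlation takes no account of the size of a change. The scra gene had 2763, 3156 and 2920 normalized counts in tmodRNAi, against 2152, 2194 and 2052 in mCherryRNAi. The nearest to the spread group were thr, of chromatid separation, at 0.998 and BubR1, of the spindle checkpoint, at 0.995. CG15293 followed at 0.994, with 333, 1339 and 1066 normalized counts in tmodRNAi, against 52.9, 40.2 and 27.8 in mCherryRNAi. The nearest to the steady group were CG14893 at 0.998 and CG15715 at 0.996. For the group with at most 3 control reads they were S-Lap7 and lncRNA:CR44318, both at 0.996. These correlations describe 6 libraries and share the 2-group contrast, and nothing about function follows from them.

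The positions of the members were compared with those of all tested genes, as a description. Of 98 members placed in BDGP6.54, 29 lay on chromosome arm 2L (29.6%), against 17.8% of tested genes, and 9 on X (9.18%), against 16.3%. The shares on 2R, 3L and 3R were 22.4%, 17.3% and 21.4%, against 20.5%, 19.6% and 24.7%. On 2L the members were spread along the arm, with 6 of 469 tested genes in the first 5 Mb, 11 of 505 in the next, then 6 of 433, 5 of 343 and 1 of 189. The 2L share was 37.9% among members with at most 3 control reads, 25% among the steady group and 27% among the spread group. For the 309 genes with the same gap whose controls spanned more than 0.7, it was 20.1%.

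Non-coding RNAs made up 9 of the placed members (9.18%), against 4.5% of tested genes, and pseudogenes 4 (4.08%), against 0.981%. Exons of another gene on the opposite strand overlapped those of 13 members (13.1%), against 31.3% of tested genes. Symbols that are only a CG or CR number were held by 48 members (48.5%), against 38.1% of tested genes. The members had lower levels than most tested genes, and the part of level in these shares was not tested.

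**Figure D5:**
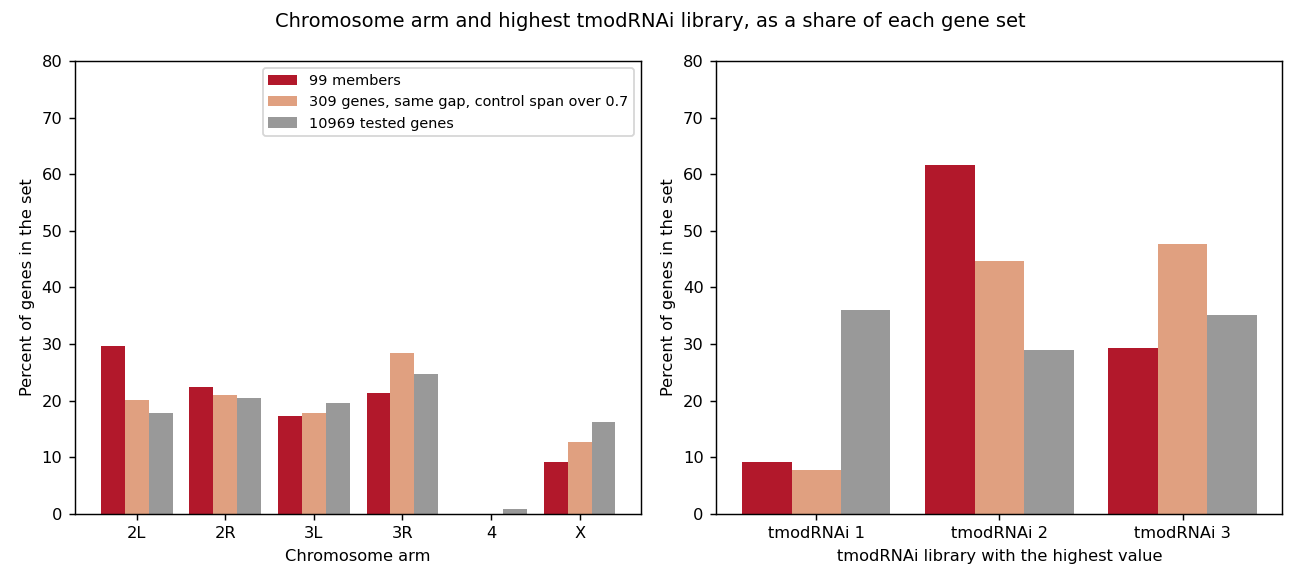
Left, percent of genes on each chromosome arm for the members, for the 309 genes with the same gap but a wider control span, and for all tested genes, with the size of each set in the legend; arm shares are of placed genes, 98 of the members and 10910 of the tested genes. Right, percent of the same sets whose highest tmodRNAi library is replicate 1, 2 or 3; replicate 2 is highest for 61.6% of members and 28.9% of all tested genes.

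The controls' spread decided which genes entered the set. The same gap with a control span above 0.7 was found for 309 genes, and mCherryRNAi replicate 1 was the highest control in 78% of them, against 39.4% of the 99 members and 39.7% of all tested genes. In tmodRNAi, replicate 2 was the highest library in 44.7% of the 309, compared with 61.6% of the members, 61 of 99. Replicate 2 stood at least 2-fold above both other tmodRNAi libraries in 36.4% of members, 17.5% of the 309 and 4.7% of all tested genes. Both choices used the same libraries, so no test was made of this difference.

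Genes just outside the limits had values like those just inside. On the gap, Cyp4ac2, Qsox2 and CG30154 lay inside at 0.70 to 0.71, and Cyp4g1, Cyp9b1 and stg lay outside at 0.69 to 0.70. On the control span, CG43333, CG4836 and Dh31 lay inside at 0.69 to 0.70, and CG11438, Spn42Db and CG43153 outside at 0.70 to 0.71. On the mean, Mip, CG15286 and Dh31 lay inside at 10.2 to 10.5 normalized counts, and CG1288, CG9254 and CG40813 outside at 9.61 to 9.91. A further 198 genes met the gap and the span but had a mean under 10.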

How the data were processed

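RNA from 3 tmodRNAi and 3 mCherryRNAi libraries, called biological replicates in the labels, was read as 50 nt pairs, per the labels. The authors deposited 1 table of a signal per gene: normalized counts, in which each library's reads were scaled by a single factor. DESeq2 1.30.1 and dm6 appear in the submitters' processing notes, and the aligner, annotation and strand setting are not given in the sources used here. Reads were recovered from each column's smallest step (100% whole within 0.001 reads). The floor of 3 reads covers counting error only, since reads are not independent molecules. log2(normalized count + 1), which understates changes of low genes, was fitted with limma 3.58.1 (R 4.3.3, trended prior, Benjamini-Hochberg adjustment, threshold 0.05) over the 10969 tested genes. Positions come from Ensembl BDGP6.54, which holds 17710 of 17807 identifiers.

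The members, gene lists and markers were chosen with earlier results of these data known. Named members are the 15 with the largest gap, the 10 with the highest mean, and those on a list, in a symbol family, beside another member or grouped by role, plus genes nearest each limit. The fits were checked on simulated counts. Alternatives were other pseudocounts, minimum means, limits and scalings, limma without the trend, edgeR 4.0.16 and DESeq2 1.42.0 on recovered reads, a replicate block and leaving out each library.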

Additional observations from a re-analysis of the deposited data

How the results depend on the processing

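The set had 99 members, 91 with a pseudocount of 0.1, 128 with 10, 68 and 143 with control spans of 0.5 and 1, and 94 and 93 with median centring and TMM scaling. It had 297 members with no minimum mean, 41 with a minimum of 50, 167 with a gap of 0.5 and 61 with a gap of 1. Leaving out 1 library gave 80 to 300 members, 300 being the cap of the rule. It was lowest without tmodRNAi replicate 2, when 64 of the 99 were kept and the others fell under the minimum mean of 10. The number was highest without mCherryRNAi replicate 1, when 42 of the 99 were within the cap. Without the cap the 99 met the rule whichever control was left out. The count of members with at most 3 control reads was 1 to 30 in these fits. With a pseudocount of 10 the median log2 fold change of the members was 1.48, with a minimum mean of 50 also 1.48, and without 1 library 1.82 to 2.31.

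Genes past the threshold numbered 2613 (1195 higher), 954 (473 higher) without the trend and 4364 (2063 higher) with DESeq2. They numbered 5203 (2464 higher) without mCherryRNAi replicate 1 and 0 to 59 (0 to 37 higher) when any other single library was left out. Members past the threshold numbered 90 of 99, and 41 of the 41 tested with a minimum mean of 50. They numbered 89 without mCherryRNAi replicate 1 and 0 to 13 when any other single library was left out. With the replicate block 0 genes (0 higher) and 0 members passed by limma, whereas 3969 genes and 96 members had an unadjusted p under 0.05, and edgeR without a block called 2417 genes. The deviations of same-numbered libraries correlated at -0.057, 0.023 and -0.018, and those of differently numbered libraries at -0.077 to 0.096. These correlations showed no pairing by number, but they cannot tell whether same-numbered libraries were handled together. For tmod the log2 fold change was -2.54 with the block (adjusted p = 0.0957) and -2.62 to -2.42 without 1 library (adjusted p = 0.000103 to 0.103), so it did not pass in each. The cause of these changes was not tested. At this depth a gene with no control read is known only to lie below about 3 reads.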
